A study of Mus musculus with 6 samples.

Results

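The lipolysis genes described here are 9 symbols of a table of 16423 genes, taken by name: the lipase genes Pnpla2, Lipe and Mgll, the lipase co-activator gene Abhd5, the lipase inhibitor gene G0s2, the glycerol channel gene Aqp7, and Pde3b, Prkar2b and Adrb3, which set the cAMP signal. All 9 have a row. They were measured by RNA sequencing in C3H10T1/2 cells, a mouse mesenchymal line that forms adipocytes under hormonal stimulation. The siYBX1 libraries (3, labelled YBX1 knockdown) came from cells given siRNAs against Ybx1, and the siNC libraries (3, labelled WT) from cells given a control siRNA. Confluent cells of every library had first received 0.5 mM 3-isobutyl-1-methylxanthine, 1 µM dexamethasone, 850 nM insulin, 1 nM triiodothyronine, 125 nM indomethacin and 1 µM rosiglitazone for 2 days. They were then kept in triiodothyronine, insulin and rosiglitazone, at those same concentrations, for another 2 days, transfected on day 4 and harvested 48 h later. The methylxanthine of the first cocktail is itself an inhibitor of phosphodiesterases. The labels give neither the siRNA sequences nor whether each replicate was grown on its own, and the p-values therefore speak for variation among these 6 libraries, possibly of technical origin.

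Lipolysis is the stepwise removal of fatty acids from stored triglyceride. The lipase ATGL, encoded by Pnpla2, takes the first fatty acid, hormone-sensitive lipase (Lipe) the second and monoglyceride lipase (Mgll) the last, and the glycerol that remains can leave through the channel AQP7. ATGL is switched on by its co-activator ABHD5 and held off by the small protein G0S2. In adipocytes β-adrenergic receptors raise cAMP, which frees the catalytic subunits of protein kinase A from regulatory subunits such as that of Prkar2b, and the insulin-responsive phosphodiesterase of Pde3b breaks cAMP down. In brown fat the released fatty acids serve both as fuel and as activators of heat production.

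The values are FPKM, which is a read count divided by gene length and library total, so levels of different genes can be set side by side. Whole reads could be recovered from them, and the library totals were 31957411 to 35410308 reads in siYBX1 and 34207232 to 35299269 in siNC. Ybx1 itself was at 59.3, 67.9 and 61.3 FPKM in siYBX1, against 135, 134 and 130 FPKM in siNC, and the siYBX1 mean was 47.3% of the siNC mean. Among the controls siNC replicate 1 stood apart, since its reads gave chi-square values of 19.8 and 23.2 per gene when compared with its partners, which gave 4.63 when compared with each other. Pairs of siYBX1 libraries lay between these, at 10.1, 11 and 8.37 per gene. Of 11 adipocyte markers 9 lay between 28.0 and 1953 FPKM over the 6 libraries, Retn was at 0.424 to 1.23 FPKM and Lep was not analysed here. Markers of brown adipocytes were mixed. Cox8b (101 to 174 FPKM), Cidea (16.5 to 23.2 FPKM) and Cox7a1 (16.4 to 19.8 FPKM) were well expressed in every library, Ppargc1a lay between 0.580 and 0.786 FPKM, and 6 of the 10 (Dio2, Prdm16, Elovl3, Otop1, Zic1 and Lhx8) stayed below 0.5 FPKM throughout. Ucp1 was not analysed here.

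Pnpla2 was the most abundant of the 9 genes and the one that fell in siYBX1. Its level was 308, 288 and 296 FPKM in siYBX1, against 428, 371 and 405 FPKM in siNC. Every siYBX1 library lay below every siNC library, and the siYBX1 libraries lay closer together than the controls. The means were 298 ± 9.93 FPKM in siYBX1 and 402 ± 28.9 FPKM in siNC (SD, n = 3 each), so that 74.1% of the control level was left. On the log2(FPKM + 1) scale the change was -0.43 (SE 0.07, 95% confidence interval -0.57 to -0.28, adjusted p = 0.00189, limma, two-sided, adjusted over 10341 genes). These values rest on 25937 to 26896 reads per library in siYBX1 and 33436 to 39268 in siNC, so counting error was small beside the spread between libraries. Without siNC replicate 1, the library with the most Pnpla2, the change was -0.38 (adjusted p = 0.00132).

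**Figure D1:**
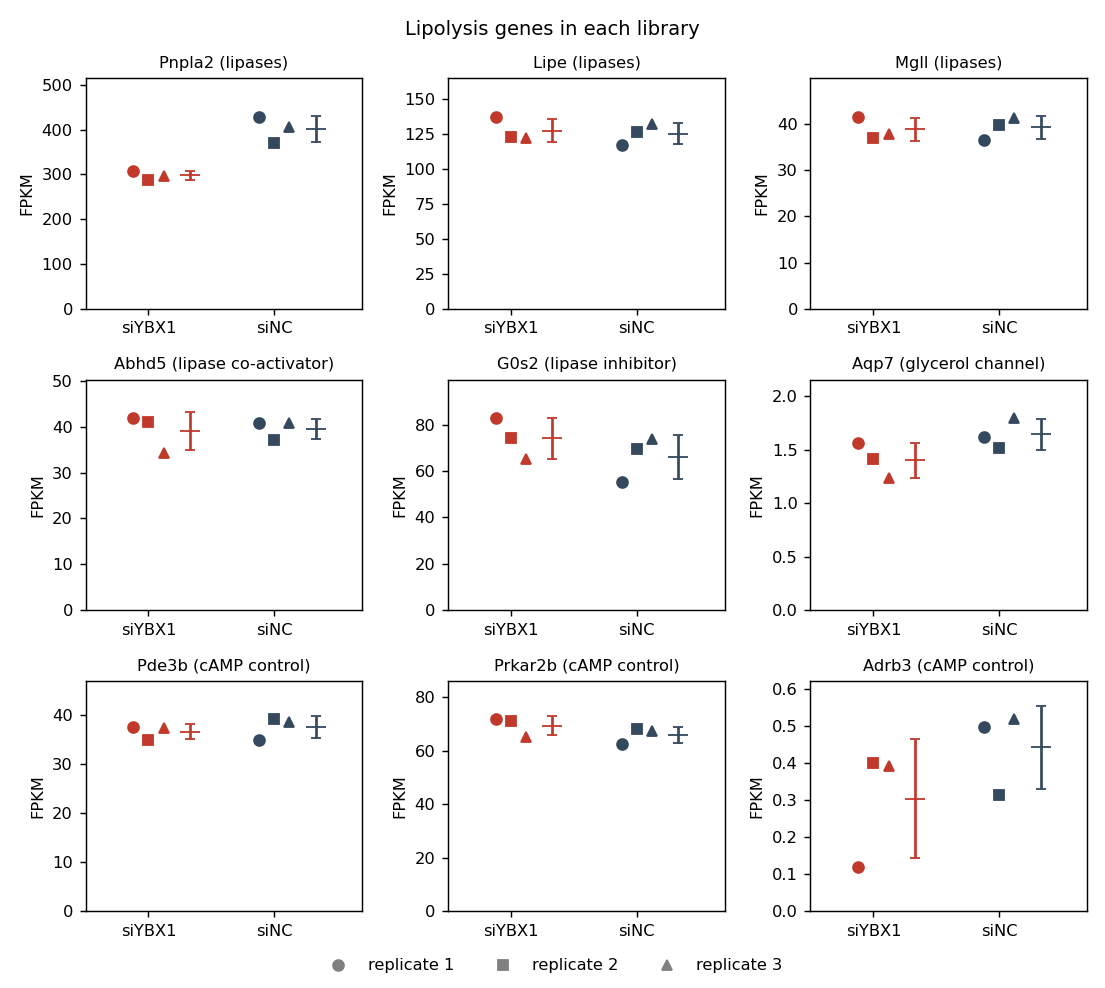
FPKM of the 9 lipolysis genes in each library, siYBX1 in red and siNC in dark blue, with 1 symbol per replicate number, and the group mean with its SD (n = 3 each) to the right of the points; every axis starts at 0. Pnpla2 is the panel in which the groups do not overlap, at 288 to 308 FPKM in siYBX1 and 371 to 428 FPKM in siNC.

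In bulk RNA, fewer cells of a type and less RNA per cell cannot be told apart. Over all genes tested 11.1% were called lower, 9.54% higher and 20.6% in either direction. Of 9 tested adipocyte markers 2 were called lower and none higher, namely Cfd (log2 fold change -0.32, adjusted p = 0.0136, limma) and Plin4 (-0.26, adjusted p = 0.0388). The summed level of the adipocyte list was 3024 to 3498 FPKM in siYBX1 and 2554 to 3468 FPKM in siNC. Fabp4 made up the largest part of that sum, at a mean of 1755 FPKM in siYBX1 and 1481 FPKM in siNC. Of the 9 tested markers 4 had a log2 fold change above 0, and their median was -0.06 over all 9. Of the smooth muscle and myofibroblast markers, 4 of 6 tested were called higher (Acta2, Tagln, Actg2 and Myl9). Smtn (-0.11, adjusted p = 0.283, limma) and Des (-0.13, adjusted p = 0.416) were not called and had the other sign. The list summed to 2024 to 2123 FPKM in siYBX1 and 593 to 660 FPKM in siNC, with Cnn1 and Myh11 below 0.5 FPKM throughout. Acta2 made up the largest part of that sum, at a mean of 1671 FPKM in siYBX1 and 518 FPKM in siNC. Of the preadipocyte and mesenchymal progenitor markers, 2 of 5 tested were called lower (Eng and Cd44). The list summed to 521 to 545 FPKM in siYBX1 and 570 to 589 FPKM in siNC. Ly6a made up the largest part of that sum, at a mean of 449 FPKM in siYBX1 and 491 FPKM in siNC. Ly6a (-0.13, adjusted p = 0.126, limma), Pdgfrb (-0.14, adjusted p = 0.0811) and Pdgfra (-0.05, adjusted p = 0.686) were not called. None of 2 tested macrophage markers passed, Cd68 (-0.69, adjusted p = 0.0681, limma) and Cd14 (0.05, adjusted p = 0.769). Cd68 had a mean of 9.13 FPKM in siYBX1 and 16.0 FPKM in siNC, with overlapping groups. The 1 tested endothelial marker, Egfl7, did not pass either (-0.18, adjusted p = 0.190), at 17.4 FPKM in siYBX1 and 19.9 FPKM in siNC. Ptprc, Adgre1, Pecam1 and Kdr were near 0. The part of these shifts in the Pnpla2 value was not tested.

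Of the 8 lipolysis genes that passed the filter on low values (a mean of 1 FPKM or more), 1 was called lower and none higher. That is 12.5% called lower, against 11.1% of all genes tested (9.54% higher and 20.6% in either direction). Pnpla2 was also the only one of the 8 whose groups did not overlap, where 21.9% of all genes tested were lower without overlap, 19% higher and 40.9% in either direction. These shares do not set the group apart from the background, and what follows are values of single genes. The median log2 fold change was -0.02 over these 8 genes and -0.011 over all genes tested. Among the 1145 genes called lower, the fall of Pnpla2 ranked 194th by size, and the median size of a called change was 0.288. By level Pnpla2 stood at rank 239 of the 16423 genes in siYBX1 and at rank 158 in siNC.

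**Figure D2:**
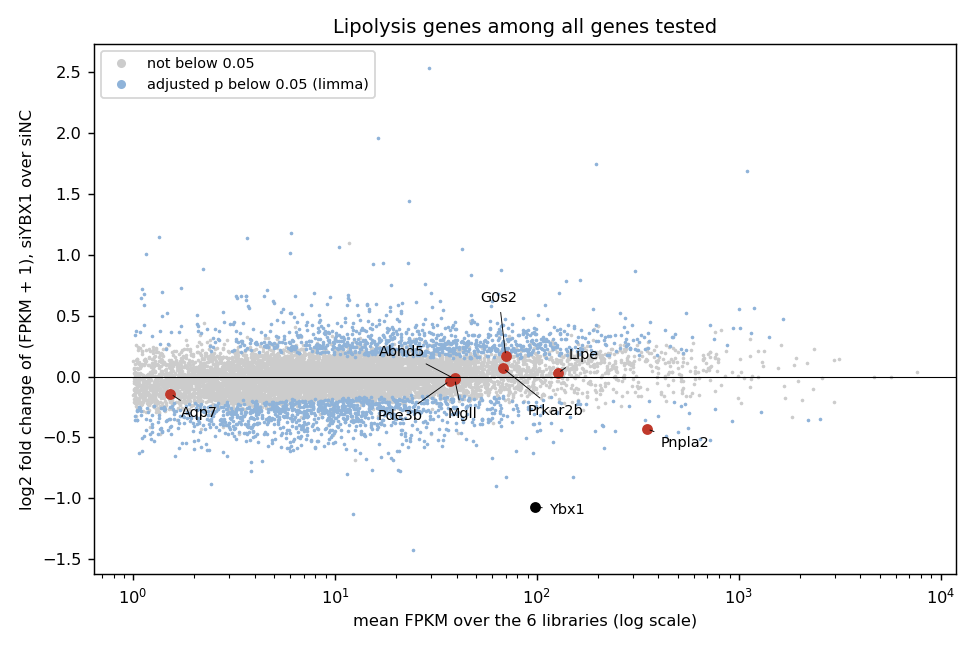
Log2 fold change of (FPKM + 1), siYBX1 over siNC, against the mean FPKM over the 6 libraries on a log axis, for the 10341 genes tested; pale blue points had an adjusted p below 0.05 (limma), red points are the 8 tested lipolysis genes and the black point is Ybx1. Pnpla2, at -0.43, lies below the band of uncalled genes and the other 7 red points lie within or at it.

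The other lipases stayed within the spread of their libraries. Lipe had 138, 123 and 122 FPKM in siYBX1, against 118, 126 and 132 FPKM in siNC. The groups overlapped, with the highest and the lowest value both in a library numbered 1. The log2 fold change was 0.03 (95% confidence interval -0.12 to 0.17, adjusted p = 0.810, limma). Mgll had 41.6, 37.0 and 38.0 FPKM in siYBX1, against 36.6, 39.9 and 41.4 FPKM in siNC, and again the groups overlapped (-0.02, 95% confidence interval -0.16 to 0.13, adjusted p = 0.886). For both genes the interval excludes a change as large as that of Pnpla2, and at this precision a change within it was not detectable. Their sign turned under some other settings, which are given with the limits.

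The ATGL partners did not pass either. Abhd5 had 41.9, 41.1 and 34.3 FPKM in siYBX1, against 40.8, 37.1 and 40.8 FPKM in siNC. The lowest value was that of siYBX1 replicate 3, and the rest of the siYBX1 libraries lay above the highest control (-0.02, 95% confidence interval -0.19 to 0.15, adjusted p = 0.873, limma). G0s2 had 82.9, 74.4 and 65.1 FPKM in siYBX1, against 55.4, 69.4 and 73.6 FPKM in siNC. These groups overlapped, and siNC replicate 1 was the lowest library (0.17, SE 0.11, 95% confidence interval -0.07 to 0.40, adjusted p = 0.290). Without that library the G0s2 value was 0.04 (adjusted p = 0.742). G0s2 is a short gene, with a recovered length of 843 bases, and lies among the shortest 20% of tested genes, where the median log2 fold change was 0.078 and 18.9% were called higher. After a correction for length it was at 0.05. Pnpla2, at 2635 bases, lies among the next 20%, with a median of 0.011 and 9.57% called lower, and was at -0.43 after the correction (adjusted p = 0.00206).

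Levels were also set against each other within each library, and every ratio with Pnpla2 on top was lower in all siYBX1 libraries than in all siNC libraries. The ratios and the share that include Pnpla2 reuse its values given above, so they are no separate evidence of its fall. The ratio of Pnpla2 to G0s2 was 3.72, 3.87 and 4.55 in siYBX1, against 7.74, 5.35 and 5.51 in siNC. The groups did not overlap, and siNC replicate 1 was far above its partners. The difference in the log2 ratio was -0.60, and -0.43 without that library. The ratio of Pnpla2 to Abhd5 was 7.34, 7.01 and 8.63 in siYBX1, against 10.5, 9.99 and 9.92 in siNC, also without overlap (-0.41). Lipe stood at 0.447, 0.427 and 0.413 of the Pnpla2 level in siYBX1, against 0.274, 0.341 and 0.327 in siNC, a log2 difference of 0.46. Of the summed FPKM of the 3 lipases Pnpla2 made up 63.2%, 64.3% and 64.9% in siYBX1, against 73.6%, 69.0% and 70.0% in siNC.

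The ratio of Mgll to Lipe hardly varied among libraries, at 0.302, 0.301 and 0.310 in siYBX1, against 0.311, 0.316 and 0.313 in siNC. Its groups were separate too, by a log2 difference of -0.04. The ratio of Pde3b to Prkar2b averaged 0.530 ± 0.0411 in siYBX1 and 0.570 ± 0.00930 in siNC (SD, n = 3 each), with overlap. Exact two-sided permutation tests gave p = 0.1 for each of the 4 ratios without overlap and p = 0.2 for this last one (0.125 and 0.2 after Benjamini-Hochberg adjustment over 5 ratios). With 3 libraries against 3, 0.1 is the smallest p such a test can give, so none could pass 0.05.

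**Figure D3:**
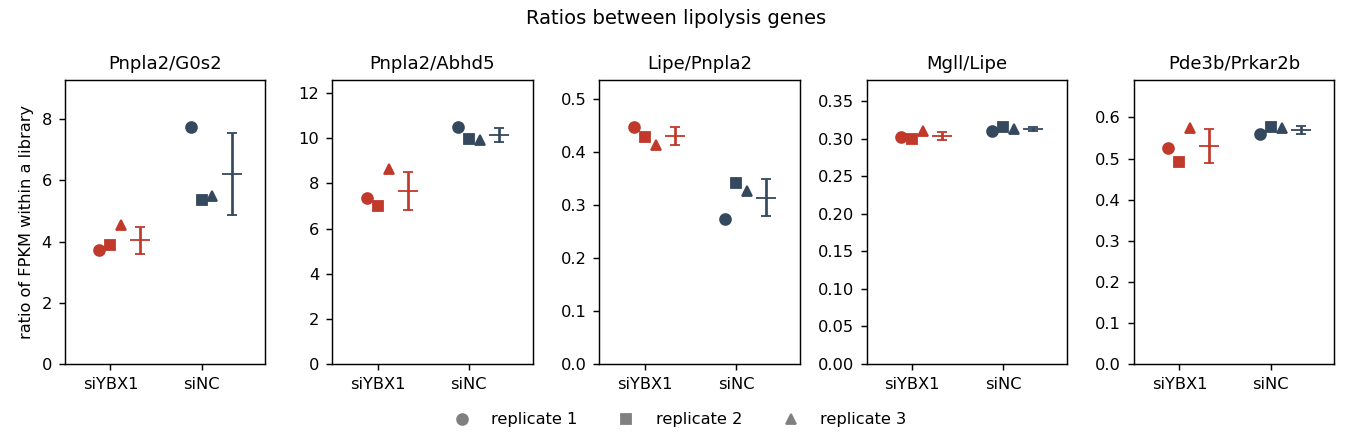
Ratios of FPKM between lipolysis genes within each library, siYBX1 in red and siNC in dark blue, with 1 symbol per replicate number and the mean with its SD (n = 3 each) at the right; every axis starts at 0. The ratio of Pnpla2 to G0s2 is 3.72 to 4.55 in siYBX1 and 5.35 to 7.74 in siNC, and the ratio of Mgll to Lipe lies between 0.301 and 0.316 in all libraries.

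The DNA just upstream of Pnpla2 and of its partners' genes is shown because YBX1 was named for binding the Y-box, a promoter element that holds an inverted CCAAT box. RefSeq windows (GRCm38.p6) of the 250 bases before a gene's start were found for 7 of the 9 genes, 11 windows in all since some genes have several starts. The inverted CCAAT box was searched as ATTGG on either strand, and none of the 11 windows holds it, while 33.8% of all 32851 windows do. The 3 windows that follow are written 5′ to 3′ on the gene's strand, with capitals at the GC box GGGCGG and its reverse complement CCGCCC. They lie at chr7:141454938-141455187 (plus strand), chr9:122351366-122351615 (plus strand) and chr1:193273189-193273438 (minus strand).
Pnpla2: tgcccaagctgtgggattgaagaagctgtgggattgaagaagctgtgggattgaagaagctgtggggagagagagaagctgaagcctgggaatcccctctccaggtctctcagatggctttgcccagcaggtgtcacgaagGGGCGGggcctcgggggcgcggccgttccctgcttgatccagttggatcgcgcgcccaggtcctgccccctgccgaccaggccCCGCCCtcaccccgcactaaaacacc
Abhd5: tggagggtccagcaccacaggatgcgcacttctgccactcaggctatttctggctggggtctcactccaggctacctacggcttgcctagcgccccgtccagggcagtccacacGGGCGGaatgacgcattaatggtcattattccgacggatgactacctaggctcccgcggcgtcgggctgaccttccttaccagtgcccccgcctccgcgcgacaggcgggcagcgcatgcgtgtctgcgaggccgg
G0s2: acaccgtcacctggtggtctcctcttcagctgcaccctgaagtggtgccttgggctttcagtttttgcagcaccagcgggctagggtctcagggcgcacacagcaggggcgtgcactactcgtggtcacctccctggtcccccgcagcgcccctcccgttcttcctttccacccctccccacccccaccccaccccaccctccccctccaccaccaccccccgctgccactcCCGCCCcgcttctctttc
The Pnpla2 window holds 2 GC boxes, which begin 109 and 26 bases before the start, and the Abhd5 and G0s2 windows hold 1 each, at 136 and 18 bases. A GC box occurs in 6 of the 11 windows (Pnpla2, Abhd5, G0s2, Lipe, Mgll and Prkar2b) and in 32.7% of all windows. The windows of these 3 genes are rich in G and C, at 63.2% for Pnpla2, 64.8% for Abhd5 and 67.2% for G0s2, where the median of all windows is 52.4%. FOXO factors are known activators of the Pnpla2 gene, and their element GTAAACA (either strand) was found in windows of Lipe and Mgll and in 3.17% of all windows, with no match in the Pnpla2 window. The cAMP response element TGACGTCA had no match among the 11 windows (1.55% of all), and the E-box CACGTG was found for Lipe, Mgll and Prkar2b (6.02% of all). A match is a run of letters and not a shown binding site, and the search says nothing of sites outside these windows.

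The genes of cAMP control did not pass. Pde3b had 37.6, 34.9 and 37.4 FPKM in siYBX1, against 35.0, 39.1 and 38.6 FPKM in siNC, with overlapping groups (-0.03, 95% confidence interval -0.16 to 0.10, adjusted p = 0.720, limma). Prkar2b, a regulatory subunit of protein kinase A that is prominent in fat, had 71.7, 71.1 and 65.2 FPKM in siYBX1, against 62.6, 67.9 and 67.2 FPKM in siNC. The lowest siYBX1 library lay below 2 of the controls (0.07, 95% confidence interval -0.06 to 0.20, adjusted p = 0.398). Adrb3, the β3-adrenergic receptor through which noradrenaline starts lipolysis in rodent fat, was barely expressed. It had 0.119, 0.400 and 0.394 FPKM in siYBX1, against 0.497, 0.313 and 0.519 FPKM in siNC. These values stand for 11, 41 and 38 reads in siYBX1 and 50, 31 and 53 reads in siNC, and the groups overlapped. Adrb3 lay below the filter on low values, and the fit without a filter put it at -0.15 (SE 0.10, adjusted p = 0.430). A pseudocount of 1 shrinks the fold change of so low a gene. Without it, limma's voom on the recovered reads gave -0.67 (SE 0.40, adjusted p = 0.255), and the siYBX1 mean was 68.7% of the siNC mean.

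Aqp7, the channel for glycerol, was low as well, at 1.56, 1.41 and 1.23 FPKM in siYBX1, against 1.62, 1.52 and 1.80 FPKM in siNC. The siYBX1 libraries lay mostly below the controls, yet siYBX1 replicate 1 was above siNC replicate 2 (-0.14, 95% confidence interval -0.31 to 0.04, adjusted p = 0.231, limma). The size of this difference varied with the setting, between -0.23 with voom on the recovered reads and -0.07 with quantile normalization, and it passed in none of the 13 alternative fits. It was counted from 125 to 152 reads in siYBX1 and 158 to 193 reads in siNC.

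In order of level the 9 genes were Pnpla2, Lipe, G0s2, Prkar2b, Abhd5, Mgll, Pde3b, Aqp7 and Adrb3, and this order of mean FPKM was the same in siYBX1 and in siNC. Pnpla2 stood above Lipe and Lipe above G0s2 in every library of each group. The ranges of G0s2 and Prkar2b overlapped in both groups, as did those of Abhd5 and Mgll and those of Mgll and Pde3b. A wide step separated these from Aqp7, at 1.40 ± 0.166 FPKM in siYBX1 and 1.64 ± 0.142 FPKM in siNC (SD, n = 3 each). The 9 genes summed to 723, 672 and 660 FPKM in siYBX1, against 778, 753 and 802 FPKM in siNC. Left without Pnpla2, the other 8 summed to 415, 384 and 364 FPKM in siYBX1, against 350, 382 and 396 FPKM in siNC, and the groups then overlapped.

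Beyond the 9 genes, 9 lists chosen by role name 77 other genes of the pathway, of which 71 had a row here and 51 of those were abundant enough to test. Of these 2 were called higher and 8 lower, 19.6% in all against 20.6% of all genes tested, a share in either direction near the background. By direction, 15.7% were called lower, against 11.1% of all genes tested, and the 2 higher calls stand against a share of 9.54%. These background shares are not matched for gene length. Among the longest 20% of tested genes 14.4% were called lower, and among the shortest 20% 6.23%. Of the 8 called lower, Plin4, Adcy9 and Irs1 lie among the longest 20% and Prkacb, Pde8a and Akt2 among the next 20%. Lipa and Egr1 lie in the middle 20%. After the length correction 3 were called higher and 5 lower. The median log2 fold change of the 51 was -0.03. Each single list holds only 3 to 9 tested genes, so the counts below describe single genes and not a list.

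**Figure D4:**
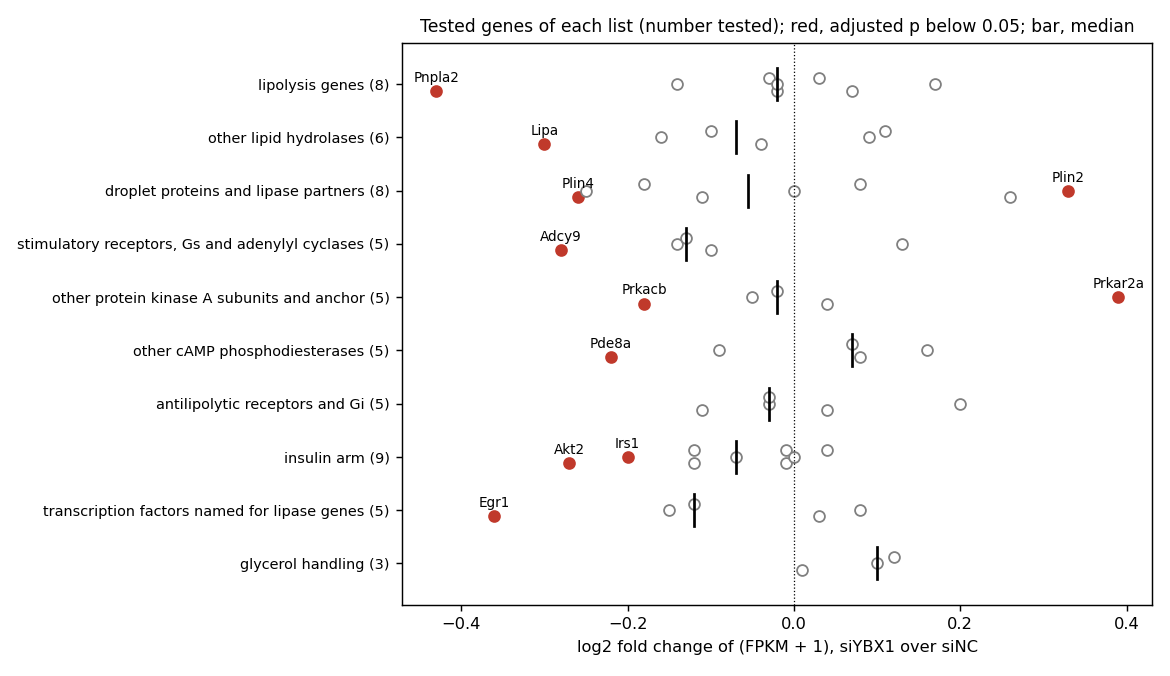
Log2 fold change of (FPKM + 1), siYBX1 over siNC, of every tested gene in each list, with the number tested in brackets; red points had an adjusted p below 0.05 (limma), open points did not, and the black bar is the list's median. Called genes lie between -0.43 (Pnpla2) and 0.39 (Prkar2a), and each median lies between -0.13 and 0.10.

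Among other lipid hydrolases 1 of 6 tested fell, Lipa, the acid lipase that degrades lipid in lysosomes. Lipa had 59.2, 57.6 and 59.7 FPKM in siYBX1, against 74.0, 72.9 and 70.7 FPKM in siNC (log2 fold change -0.30, SE 0.05, adjusted p = 0.00265, limma). All siYBX1 libraries lay below all controls. The carboxylesterase genes Ces1d and Ces1f, named after their values were seen, exceeded Pnpla2 in mean level: Ces1d was at 515 ± 38.6 FPKM in siYBX1 and 578 ± 78.7 FPKM in siNC (adjusted p = 0.271), and Ces1f at 520 ± 30.1 FPKM in siYBX1 and 535 ± 61.0 FPKM in siNC (adjusted p = 0.804). They are closely related paralogs, so how reads were split between them is uncertain.

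Of 8 tested droplet proteins and lipase partners 1 rose and 1 fell. Plin2, a coat protein of lipid droplets, had 550, 516 and 503 FPKM in siYBX1, against 358, 447 and 451 FPKM in siNC (0.33, SE 0.09, adjusted p = 0.0250, limma). Plin4, another droplet coat protein, had 72.1, 66.7 and 79.1 FPKM in siYBX1, against 95.8, 85.7 and 80.1 FPKM in siNC (-0.26, SE 0.08, adjusted p = 0.0388). Neither pair of groups overlapped, and for each gene siNC replicate 1 was the control farthest from the siYBX1 libraries. Plin2 lost its call when siYBX1 replicate 1, 2 or 3 was left out (adjusted p 0.0510 to 0.0877). Plin4 lost it without siNC replicate 1 or 2 or siYBX1 replicate 1 or 2 (0.0646 to 0.141) and after the length correction (0.0631). Plin1, named after its values were seen, had 129, 113 and 120 FPKM in siYBX1, against 134, 137 and 139 FPKM in siNC. Its groups did not overlap, and it fell just short of a call (-0.18, SE 0.06, adjusted p = 0.0537, limma). Of the 8 tested genes of this list 4 had a log2 fold change above 0.

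In the cAMP pathway 1 subunit gene of protein kinase A rose and 1 fell. Prkar2a, the regulatory subunit most like Prkar2b, rose to 17.6, 16.8 and 16.9 FPKM in siYBX1, against 14.1, 12.0 and 12.3 FPKM in siNC (0.39, SE 0.07, adjusted p = 0.00303, limma). The catalytic subunit gene Prkacb had 12.8, 13.3 and 13.9 FPKM in siYBX1, against 15.4, 15.1 and 15.0 FPKM in siNC (-0.18, SE 0.05, adjusted p = 0.0426). None of the other 3 tested genes of that list passed. Of 5 tested genes for stimulatory receptors, Gs and adenylyl cyclases, 1 fell: the cyclase gene Adcy9, at 1.92, 2.08 and 2.45 FPKM in siYBX1, against 3.07, 2.65 and 2.77 FPKM in siNC (-0.28, SE 0.08, adjusted p = 0.0319). Of 5 tested phosphodiesterase genes 1 fell, Pde8a, which encodes a cAMP-specific enzyme, at 4.71, 4.79 and 4.71 FPKM in siYBX1, against 6.02, 5.87 and 5.21 FPKM in siNC (-0.22, SE 0.07, adjusted p = 0.0381). In all 4 of these genes the groups were separate. The Prkacb call was lost without each library but siYBX1 replicate 3 (0.0689 to 0.151), that of Adcy9 without siNC replicate 1 or 3 or siYBX1 replicate 1 or 2 (0.0707 to 0.108), and that of Pde8a without each library but siNC replicate 3 (0.0829 to 0.101). After the length correction Prkacb (-0.13, adjusted p = 0.0692) and Pde8a (-0.17, 0.0717) did not pass, nor did Adcy9 (-0.22, 0.0513) and Pde8a (-0.18, 0.0676) with quantile normalization.

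On the side that restrains lipolysis, 2 of 9 tested insulin arm genes fell (22.2%, against 11.1% of all genes tested that were called lower). Akt2, the kinase that passes the insulin signal on in fat, had 53.2, 51.9 and 54.6 FPKM in siYBX1, against 66.2, 64.1 and 62.7 FPKM in siNC (-0.27, SE 0.05, adjusted p = 0.00484, limma). Irs1, the adaptor below the insulin receptor, had 10.5, 9.89 and 11.4 FPKM in siYBX1, against 12.5, 12.4 and 12.2 FPKM in siNC (-0.20, SE 0.06, adjusted p = 0.0413). Both genes were lower in every siYBX1 library than in every control, and the Irs1 call was lost without each library but siYBX1 replicate 3 (0.0648 to 0.144). Irs1 was at -0.13 after the length correction (adjusted p = 0.0962) and at -0.19 with quantile normalization (0.0528), and passed in neither. None of 5 tested antilipolytic receptor and Gi genes passed, among them Gnai2 at 186 ± 3.56 FPKM in siYBX1 and 201 ± 5.15 FPKM in siNC (-0.11, adjusted p = 0.138) and Gnai3 (0.04, adjusted p = 0.696).

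Of 5 tested transcription factors known for lipase genes 1 fell. Egr1, a repressor of Pnpla2 transcription in mouse adipocytes, had 10.5, 9.01 and 11.9 FPKM in siYBX1, against 13.1, 14.6 and 13.3 FPKM in siNC (-0.36, SE 0.09, adjusted p = 0.0154, limma), a call lost without siYBX1 replicate 2 (0.0502) and with no filter on low values (0.0798). None of 3 tested glycerol handling genes passed, with Gpd1 at 280 ± 39.6 FPKM in siYBX1 and 263 ± 48.4 FPKM in siNC (0.10, adjusted p = 0.626) and Gpd1l at 0.01 (adjusted p = 0.924). The calls of Lipa, Prkar2a and Akt2 held in all 13 alternative fits, with adjusted p-values of at most 0.0160, 0.0253 and 0.0245.

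**Figure D5:**
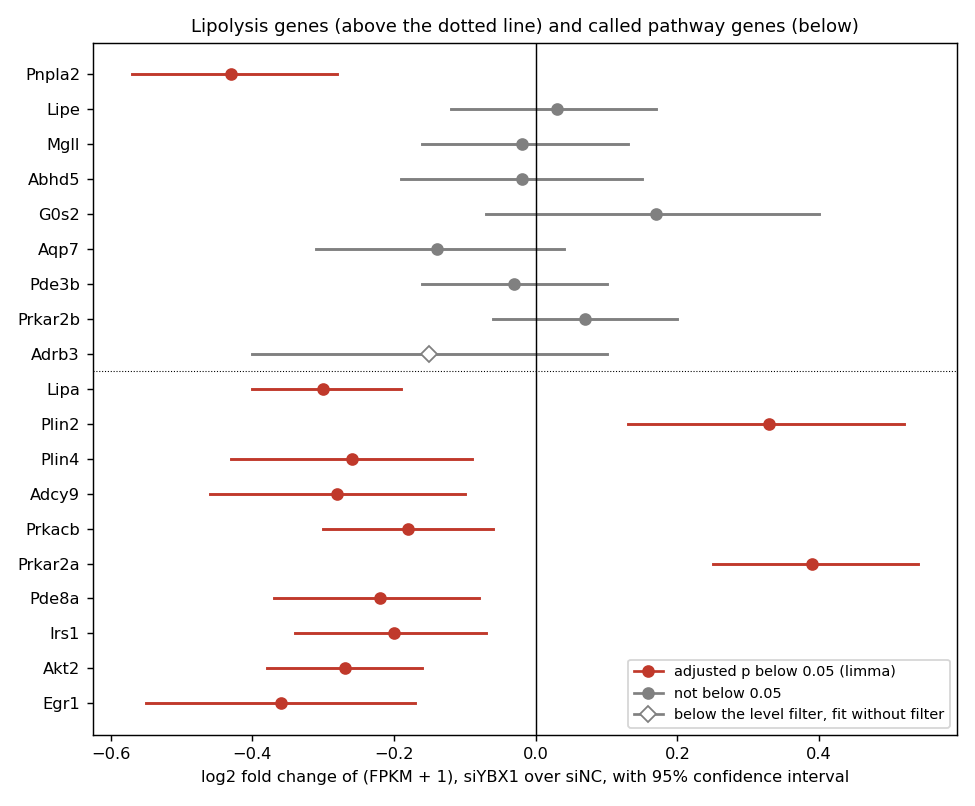
Log2 fold change of (FPKM + 1), siYBX1 over siNC, with its 95% confidence interval (limma), for the 9 lipolysis genes above the dotted line and the 10 called pathway genes below it; red marks an adjusted p below 0.05 and the open diamond, Adrb3, comes from the fit without a filter on low values. Pnpla2 spans -0.57 to -0.28, while the intervals of the other 8 lipolysis genes include 0.

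As a description of which genes varied like the lipolysis genes, Pearson's r of log2(FPKM + 1) over the 6 libraries was computed for 7332 genes whose mean reached 5 FPKM. The genes most like Pnpla2 were Maged1 (0.998), Cs, which encodes citrate synthase (0.994), and Dhx33, an RNA helicase gene (0.993). Their log2 fold changes were -0.13, -0.20 and -0.26, all smaller than that of Pnpla2. For Lipe they were Osgin1 (0.976), Ndufaf4, an assembly factor of respiratory complex I (0.971), and Gpd1, the cytosolic glycerol-3-phosphate dehydrogenase (0.958). For G0s2 they were Phb, Ndufa2, a complex I subunit gene, and Isg15, an interferon-induced gene (0.989 each). With 6 points that share group, library and depth, such values are high for many genes by construction and carry no test.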

How the data were processed

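The authors deposited FPKM values for 16423 gene symbols in 6 libraries. Named in the submitters' processing notes are the tools fastp, HISAT2 and HTSeq and the build GRCm39, with no version or role; strandedness is not given in the sources used here. Antisense or overlapping genes are annotated at Lipe, Mgll, Abhd5, G0s2 and Adrb3 (names from GENCODE), so their reads may be shared. The gene at G0s2, Lamb3, reached at most 0.536 FPKM in any library, and the overlapping genes at the others have no row here. Columns were matched to samples by arm and number. Library totals came from 273 to 289 genes whose RefSeq span (GRCm38.p6) turned FPKM into whole reads, and whole reads within 0.02 were then found for 16422 genes (99.994%), taking the smallest length that fits. A single read on a 2 kb gene is worth 0.0141 to 0.0156 FPKM.

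siYBX1 was compared with siNC in log2(FPKM + 1) by limma 3.58.1 (R 4.3.3, trended variance), over 10341 genes whose mean reached 1 FPKM, two-sided, with a Benjamini-Hochberg adjusted p below 0.05 as threshold. A pseudocount of 1 understates changes of low genes. On simulated reads for this comparison, with 10321 genes tested, the same fit found 68% of the genes given a 1.25-fold change. It found 100% at 1.5-fold, at 2-fold and at 3-fold, and false calls numbered 15 among 197. The simulation gave every gene the same dispersion of 0.003 and held no library that stood apart as siNC replicate 1 did. Its rates may therefore be higher than those reached in the real libraries. Ratios used exact permutation tests. Named pathway genes were the 2 largest called rises and 2 largest called falls per list, or the 2 most abundant where none passed. The likeness search left out predicted genes and pseudogenes. Members and lists were chosen with earlier results of these data known. Alternatives were a pseudocount of 0.1, no filter, TPM, quantile normalization, a replicate block, voom on reads (mean of at least 10), a loess length correction (span 0.3) and leaving out each library. Scripts ran in Python 3.11.15 with pandas 2.3.3 and scipy 1.17.1.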

Additional observations from a re-analysis of the deposited data

How the results depend on the processing

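The Pnpla2 call held in all 13 alternative fits, with log2 fold changes from -0.53 (quantile normalization) to -0.38 and adjusted p-values from 0.000222 to 0.0207 (limma), and none of the other 7 tested lipolysis genes passed in any of them. Adrb3 could be tested only without the filter and with voom, and passed in neither. Over all genes 577 were called higher and 664 lower with no filter, 607 and 739 with the replicate block, and 646 and 1566 with TPM (29.2% of calls higher, against 46.3%). With 1 library left out 547 to 970 were higher and 604 to 1056 lower. Of the pathway genes, counted as 2 higher and 8 lower, 1 was higher and 3 lower with no filter or with the replicate block, and 3 higher and 5 lower with the length correction. The 3 lower genes with no filter were Lipa, Akt2 and the phosphodiesterase gene Pde8b, which the filter otherwise left out. Pde8b was at 0.420 FPKM in siYBX1 and 0.555 FPKM in siNC (-0.13, adjusted p = 0.0215, limma). TPM gave 2 higher and 12 lower, voom 3 and 10, and quantile normalization 3 and 9. With 1 library left out 1 to 2 were higher and 2 to 7 lower. Same-numbered libraries did not deviate together (correlations -0.31, -0.13 and -0.25). Deviations from a mean of 3 libraries constrain each other, so these values cannot decide whether the numbers mark a pairing or a shared batch. With the block Plin2 (adjusted p = 0.0574), Plin4 (0.0664), Adcy9 (0.0651), Prkacb (0.116), Pde8a (0.0838) and Irs1 (0.0938) did not pass. With no filter these 6 and Egr1 did not pass (0.0575 to 0.128). The block left the Pnpla2 value at -0.43 (adjusted p = 0.00700).

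Signs near 0 turned as follows, with no call on either side. Lipe was at -0.06 with quantile normalization, -0.03 with TPM, and -0.03 to 0.07 with 1 library left out. Mgll was at 0.03 with the length correction and at -0.07 to 0.02 with 1 library left out. Abhd5 ran from -0.07 to 0.07 with 1 library left out, being 0.00 without siNC replicate 1. Aqp7 kept its sign, at -0.22 with TPM or a pseudocount of 0.1 and at -0.19 to -0.09 with 1 library left out. Pde3b was at 0.01 with the length correction. Gnai3 was at -0.02 with TPM, Gpd1 at -0.02 with quantile normalization and Gpd1l at -0.04 with TPM. With 1 library left out they ran from -0.01 to 0.07 for Gnai3, from -0.06 to 0.20 for Gpd1 and from -0.03 to 0.04 for Gpd1l. The 5 ratios kept their sign in every setting run, with log2 differences of -0.70 to -0.43 for Pnpla2 to G0s2, -0.50 to -0.35 for Pnpla2 to Abhd5, and 0.36 to 0.52 for Lipe to Pnpla2 when 1 library was left out. Gnai2 passed with quantile normalization (-0.21, adjusted p = 0.0306) and with TPM (-0.17, 0.0484). The cause of these shifts was not tested. Few reads limit Adrb3 and Aqp7 most.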

Other observations

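Within the control group siNC replicate 1 held the lowest value of Lipe (118 FPKM), Mgll (36.6 FPKM), G0s2 (55.4 FPKM), Pde3b (35.0 FPKM) and Prkar2b (62.6 FPKM), and the highest value of Pnpla2 (428 FPKM). The adipocyte genes Fabp4, a fatty acid binding protein, and Adipoq, the hormone adiponectin, were likewise lowest among the controls there, at 1136 FPKM against 1665 and 1642 FPKM, and at 468 FPKM against 707 and 676 FPKM. Cd68, a lysosomal glycoprotein of macrophages that other cells can also express, was highest there, at 24.3 FPKM against 10.8 and 12.8 FPKM, while Ptprc and Adgre1 were near 0. These genes were singled out after their values were seen. Pnpla2 in that library thus stood on the opposite side of its group from 5 of the other lipolysis genes.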
